A study of Mus musculus with 18 samples.

Results

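The cytosolic ribosomal protein genes are the protein-coding genes that encode the proteins of the small (40S) and large (60S) subunits of the cytoplasmic ribosome. They were chosen by symbol, as Rpl or Rps followed by a number and at most 1 further letter, together with Rpsa, Rplp0, Rplp1 and Rplp2. Of 54838 genes in the count table, 80 met this rule, 31 for the 40S and 49 for the 60S subunit. Ribosomal RNA was depleted from total RNA of cultured mouse cells and the rest was sequenced, to follow the differentiation of neural stem cells into astrocytes with and without the inflammatory cytokine TNF. The 18 libraries fell into 6 conditions with 3 replicates each. NSPs, free-floating neurospheres of neural stem cells from the ventricular zone of wild type C57BL/6J embryos at day 14, were kept proliferating in medium with EGF at 20 ng/ml (time 0 h, no TNF). The other 5 conditions were adherent cells moved to 10% FBS without EGF. They were harvested after 24 h, either untreated or given 50 ng/ml TNF, after 72 h, again untreated or treated, and after 1 week, untreated. All cells were wild type and cultured outside the brain, and stem cells were taken from single embryonic brains. The study's methods speak in general of independent biological experiments, but neither they nor the labels tie a library to a brain, so the p-values measure the spread between these cultures, which may in part be technical.

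Each ribosome needs a single copy of nearly every one of these proteins, so their genes are transcribed in balance. Growing and dividing cells spend much of their transcription and translation on making ribosomes. Most of their mRNAs begin with a cytosine followed by a run of pyrimidines (the 5′ terminal oligopyrimidine motif), through which mTORC1 signaling and the protein Larp1 control how much of the mRNA is translated. Many of the genes also carry small nucleolar RNAs in their introns, which guide the modification of ribosomal RNA. In these data, 29 of the 80 genes held 56 annotated snoRNA genes on the same strand. The 80 genes lay on 19 chromosomes, with 14 on chromosome 7 and 4 on X, and their exons covered a median of 992 bases (range 383 to 5395), against 2782 for all protein-coding genes in the table.

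The sequence around the transcription start was taken from RefSeq for GRCm38.p6, which gave 72 start windows for 60 of the genes. A cytosine at the start base followed by 4 pyrimidines was present in 18.1% of these windows (13) and in 2.5% of all 32851 windows. With the cytosine allowed anywhere within 5 bases of the start, the shares were 41.7% (30 windows) and 18.3%. In the 250 bases before and 50 bases after the start, searched on both strands, the word CCGGAAG, the core bound by ETS factors, was in 36.1% of the windows (26) against 8.9% of all, and AAGATGGC, the core bound by YY1, was in 9.7% (7) against 2.7%. The 2 words overlapped each other in 0 of the 72 windows. The windows below run from 10 bases before the start to 20 bases from it, on the strand of the gene, with the pyrimidine tract that begins with a cytosine within 5 bases of the start in capitals. Rpl13a (chr7:45128726-45128755, minus strand), Rpl12 (chr2:32961702-32961731, plus strand) and Rpl35 (chr2:39005112-39005141, minus strand) are shown because they fell most at 24 h, and Rpl39 (chrX:37085203-37085232, minus strand) and Rpl7a (chr2:26910797-26910826, plus strand) because they were among the largest falls later.
Rpl13a: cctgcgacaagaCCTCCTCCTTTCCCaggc
Rpl12: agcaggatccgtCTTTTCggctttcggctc
Rpl35: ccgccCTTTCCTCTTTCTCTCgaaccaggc
Rpl39: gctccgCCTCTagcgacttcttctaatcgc
Rpl7a: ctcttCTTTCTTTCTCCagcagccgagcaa

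Rpl38 (chr11:114668570-114668599, plus strand) and Rps15 (chr10:80292421-80292450, plus strand) are shown because they fell least, Rpsa (chr9:120127756-120127785, plus strand) as a gene with a large fall and no tract in its window, and Rps27 (chr3:90213629-90213658, minus strand) and Rps27l (chr9:66946076-66946105, plus strand, the first of its 2 windows) as a paralogue pair of which Rps27l alone was called with TNF.
Rpl38: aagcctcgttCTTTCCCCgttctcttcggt
Rps15: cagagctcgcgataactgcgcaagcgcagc
Rpsa: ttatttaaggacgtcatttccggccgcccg
Rps27: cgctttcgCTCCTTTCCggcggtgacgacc
Rps27l: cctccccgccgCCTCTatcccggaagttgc
A tract was thus present in genes that fell most and in a gene that fell least. Over the 57 tested genes with a window, the median log2 fold change from NSPs to 24 h was -1.28 in the 28 with a tract (middle 50% from -1.44 to -1.12) and -1.16 in the 29 without one (-1.25 to -1.04), and the ranges overlapped.

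Libraries held from 12509693 to 22549627 counts. No replicates were duplicates of each other, since a chi-square over genes divided by its degrees of freedom was at least 3.71 in every pair, where sampling noise alone gives 1. The pairs holding replicate 1 of NSPs, of 24 h with TNF or of 72 h with TNF stood apart, at 40.5 to 55.4, against at most 28.6 in the others. Results that rest on these 3 libraries were also computed without them. RNA quality is given by the submitters only as a range over the series, so its part in any result was not tested. Proliferation markers (8 genes) summed to between 1492 and 2398 CPM (counts scaled to a common library size with TMM factors) in NSPs and to at most 107 CPM elsewhere. Astrocyte markers (10 genes) summed to between 5510 and 5841 CPM in NSPs. Their sums were higher at 24 h (6036 to 6320 CPM) and 72 h (6303 to 8599 CPM). They were lower at 72 h with TNF (3785 to 5199 CPM) and at 1 week (3586 to 3724 CPM), and overlapped with NSPs at 24 h with TNF (5151 to 6539 CPM). At 1 week edgeR called 6 of the 10 lower than in NSPs and 1 higher (29.1% and 29.6% of all genes). Gfap, a filament protein of astrocytes, was at 11.6 to 37.3 CPM in NSPs and at 52.6 CPM or more in every differentiated library. At 1 week, Gfap was at 55.8, 52.6 and 81.5 CPM, far below the 1853, 3168 and 2267 CPM of 72 h, although both are labeled as astrocytes. Neural stem cell markers (8 genes) summed to between 6539 and 8124 CPM in NSPs and between 3649 and 7133 CPM elsewhere. Summed neuron markers (8 genes) lay between 1440 and 2094 CPM in all libraries, oligodendrocyte markers (8) between 128 and 517, microglia and blood markers (8) between 28.3 and 60, endothelial markers (6) between 3.01 and 7.60, and mural and fibroblast markers (8) between 4.49 and 11.1 in NSPs and between 54.5 and 531 elsewhere. The sums do not show every change. EdgeR called 5 of 7 tested neuron markers lower than in NSPs at 72 h (median -1.46) and 5 at 1 week (median -1.91). Of all genes, 27.2% and 29.1% were called lower. Mag, Ptprc, Itgam, Cdh5, Cldn5 and Lum had at most 3 counts in any library.

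In NSPs, ribosomal protein genes took 2.77% ± 0.0808 of all counts (SD, n = 3), and in the differentiated libraries they took at most 1.58%. The share was 2.67%, 2.82% and 2.81% in the NSP libraries. It was 1.18%, 1.5% and 1.19% at 24 h, 1.02%, 1.24% and 1.35% at 72 h, and 1.18%, 0.951% and 1.08% at 1 week. With TNF it was 1.2%, 1.51% and 1.58% at 24 h and 1.03%, 1.02% and 1.04% at 72 h. Every NSP library thus lay above every other library, the 24 h libraries with and without TNF overlapped, and the 72 h TNF libraries lay at the low end of the 72 h range. The 60S genes took 1.46 ± 0.0369 counts for each 40S count in NSPs and between 1.54 and 1.62 in every other library, so every NSP library had the lower ratio.

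**Figure D1:**
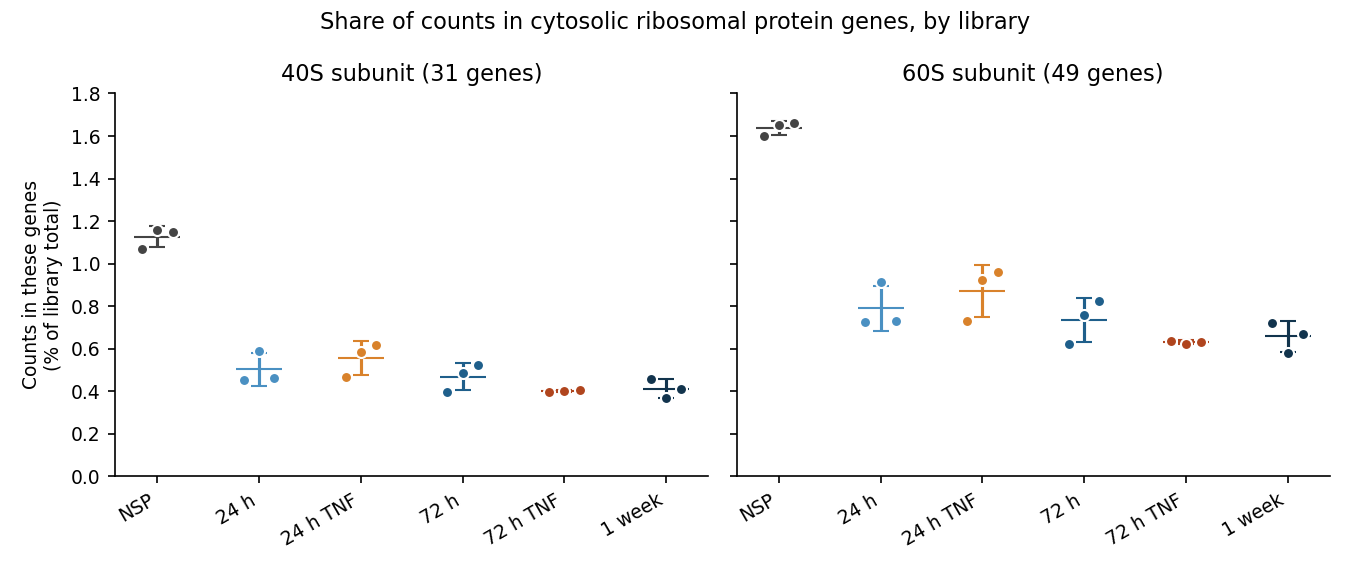
Counts in the 40S genes (31, left) and the 60S genes (49, right) as percent of each library's total, with points for libraries, bars for the mean and whiskers for the SD of 3 replicates. NSP libraries sit at 1.07% to 1.16% for the 40S and 1.60% to 1.66% for the 60S genes, and all other libraries at or below 0.617% and 0.960%.

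Levels of the members differed widely. Per kilobase of exon, Rpl7, a 60S protein, had the highest level over the conditions (a mean of 567 CPM per kb), followed by the stalk protein Rplp1 (465) and by Rpl3, which lies by the center where peptide bonds form (445). The median over the 77 tested members was 334 CPM per kb in NSPs and between 110 and 168 CPM per kb in the other conditions. Rps10, a 40S protein, was low, at 15, 14.6 and 13.9 CPM in NSPs, as was Rpl24 of the 60S, at 13.8, 18.5 and 15.6 CPM. How the counting treated reads with several matching genes, or the strand, is not stated. As 59 members have named pseudogene rows (291 in all, holding 0.408% of the members' counts) and 21 members overlap a gene on the other strand, the level of any 1 of these is uncertain. The same holds for 6 members that overlap a gene on their own strand, among them Rps10, Rpl24, Rpl3 and Rpl13a, since reads shared by both genes may not have been counted. The order of the members by mean CPM was much the same in all conditions, with a Spearman correlation across the 77 genes, which share libraries and lengths, of 0.94 to 0.97 between NSPs and each other condition.

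Of the 80 members, 77 passed edgeR's filter on low counts and 3 did not. Rpl10l, Rpl39l and Rpl3l, the untested members, are copies known from testis (Rpl10l, Rpl39l) and from striated muscle (Rpl3l). Rpl10l had 0 counts in all 18 libraries, Rpl39l had 2 counts and Rpl3l had 38 counts over all libraries together. Their widely expressed partners were abundant, with Rpl10 at a mean of 424 CPM, Rpl39 at 322 CPM and Rpl3 at 1066 CPM in NSPs.

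The first question was how the members differed between NSPs and the differentiated conditions. At 24 h all 77 tested members were called lower than in NSPs (edgeR's quasi-likelihood test over all 18 libraries, Benjamini-Hochberg adjusted p under 0.05), by a median of -1.18 on the log2 scale, a 2.26-fold lower level. Over all 20067 tested genes the median was 0.06, 27.2% were called higher and 25.5% lower. The changes of the members lay close together, with the middle 50% between -1.34 and -1.07. The smallest fall was that of Rps15, from 235, 309 and 270 CPM in NSPs to 136, 213 and 183 CPM at 24 h (log2 fold change -0.61, SE 0.18, adjusted p = 0.00761), groups that did not overlap. A lower level in these bulk cultures can mean fewer cells with high expression or a smaller share of the RNA in each cell, which cannot be told apart. Differentiation also came together with the loss of EGF, the addition of FBS and the change from floating to adherent culture. These cannot be told apart either. The summed proliferation markers fell along with the members, all 8 called lower by a median of -4.44. Of 10 astrocyte markers, 4 were called higher and 2 lower, and of 8 neural stem cell markers, 1 higher and 4 lower. Of 7 tested neuron markers, 1 was called higher and 1 lower. Of 6 tested oligodendrocyte markers, 3 were called lower, and of 3 tested mural and fibroblast markers, 2 were called higher. The part of these lists in the result was not tested. Without 24 h replicate 1, 76 members were called lower, and without the 3 libraries that stood apart, 77 were, with a median of -1.21.

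Rpl13a, a 60S protein that is also released from the ribosome to silence inflammatory mRNAs in interferon-treated monocytes, fell most at 24 h. Its level was 87.2, 70.8 and 78.6 CPM in NSPs and 20.2, 23.0 and 18.6 CPM at 24 h, so that the highest 24 h library was below the lowest NSP library by more than the spread within either group (log2 fold change -1.93, SE 0.19, adjusted p = 1.37e-07). The second largest fall was that of Rpl12, a protein at the base of the stalk that binds elongation factors. It went from 462, 383 and 413 CPM to 132, 156 and 131 CPM (-1.59, SE 0.16, adjusted p = 3.21e-07). Rpl35, at the rim of the tunnel through which the new peptide leaves, went from 157, 122 and 118 CPM to 41.1, 59.5 and 44.1 CPM (-1.45, SE 0.18, adjusted p = 3.13e-06). In all 3 genes the groups were separate, and each shows a pyrimidine tract in the sequences above. Rpl13a overlaps another gene on its own strand and holds 4 snoRNA genes, so a few of its reads could belong to those.

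At 72 h and at 1 week the members were again lower than in NSPs. All 77 were called lower at 72 h, by a median of -1.25 (2.38-fold), where 28.1% of all genes were called higher, 27.2% lower and the median of all genes was 0.05. All 77 were called lower at 1 week as well, by a median of -1.48 (2.79-fold), with 29.6% of all genes higher, 29.1% lower and a median of 0.06. The 3 comparisons share the NSP libraries, so their counts are not independent of each other. Leaving out any 1 library kept all 77 calls at both times. The median of the 40S members was -1.30, -1.32 and -1.54 at the 3 times and that of the 60S members -1.13, -1.23 and -1.42.

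**Figure D2:**
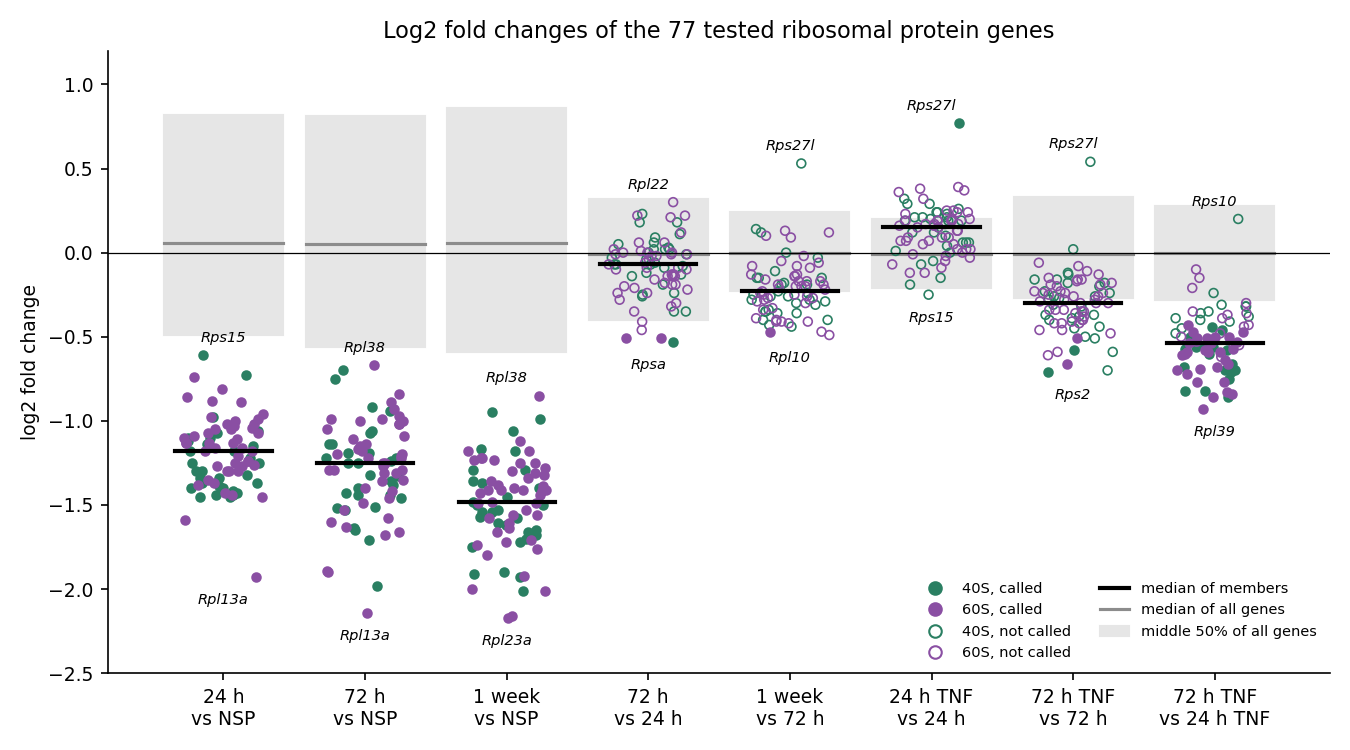
Log2 fold change (vertical axis) of each of the 77 tested members in 8 comparisons, filled where called, with the median of the members in black and the median and middle 50% of all tested genes in gray. In the 3 comparisons with NSPs every member is filled and lies below the middle 50% of all genes, with medians of -1.18, -1.25 and -1.48. Rps27l is the highest point in both comparisons of TNF with no TNF, at 0.77 and 0.54.

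The largest falls at 72 h were those of Rpl13a, Rpsa and Rpl39. Rpl13a stood at 14.7, 18 and 20.8 CPM (-2.14 from NSPs, SE 0.19, adjusted p = 1.94e-08). Rpsa, a 40S protein also known as the laminin receptor, was at 1060, 930 and 912 CPM in NSPs and at 205, 253 and 278 CPM at 72 h (-1.98, SE 0.17, adjusted p = 1.83e-08). Rpl39, a very small protein inside the exit tunnel, went from 330, 324 and 312 CPM to 68.9, 91.7 and 98.3 CPM (-1.90, SE 0.20, adjusted p = 3.04e-07). In each of these genes the highest 72 h library was far below the lowest NSP library. At 1 week, Rpl39 was at 81.4, 56.6 and 77.9 CPM (-2.16, SE 0.21, adjusted p = 5.48e-08). Rpl23a, where factors dock at the tunnel's exit, went from 142, 126 and 120 CPM in NSPs to 31.2, 26.7 and 27.8 CPM (-2.17, SE 0.17, adjusted p = 3.19e-09). Rpl7a, a 60S protein, went from 666, 601 and 642 CPM to 169, 141 and 166 CPM (-2.01, SE 0.15, adjusted p = 3.22e-09). The 1 week and NSP groups of these genes lay far apart. At the other end, Rpl38, a 60S protein on which normal patterning of the mouse skeleton depends, went from 169, 175 and 167 CPM to 80.8, 115 and 124 CPM at 72 h and 110, 84.7 and 89.2 CPM at 1 week, falls by 0.67 (SE 0.17, adjusted p = 0.00228) and 0.85 (SE 0.17, adjusted p = 0.000309) on the log2 scale.

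**Figure D3:**
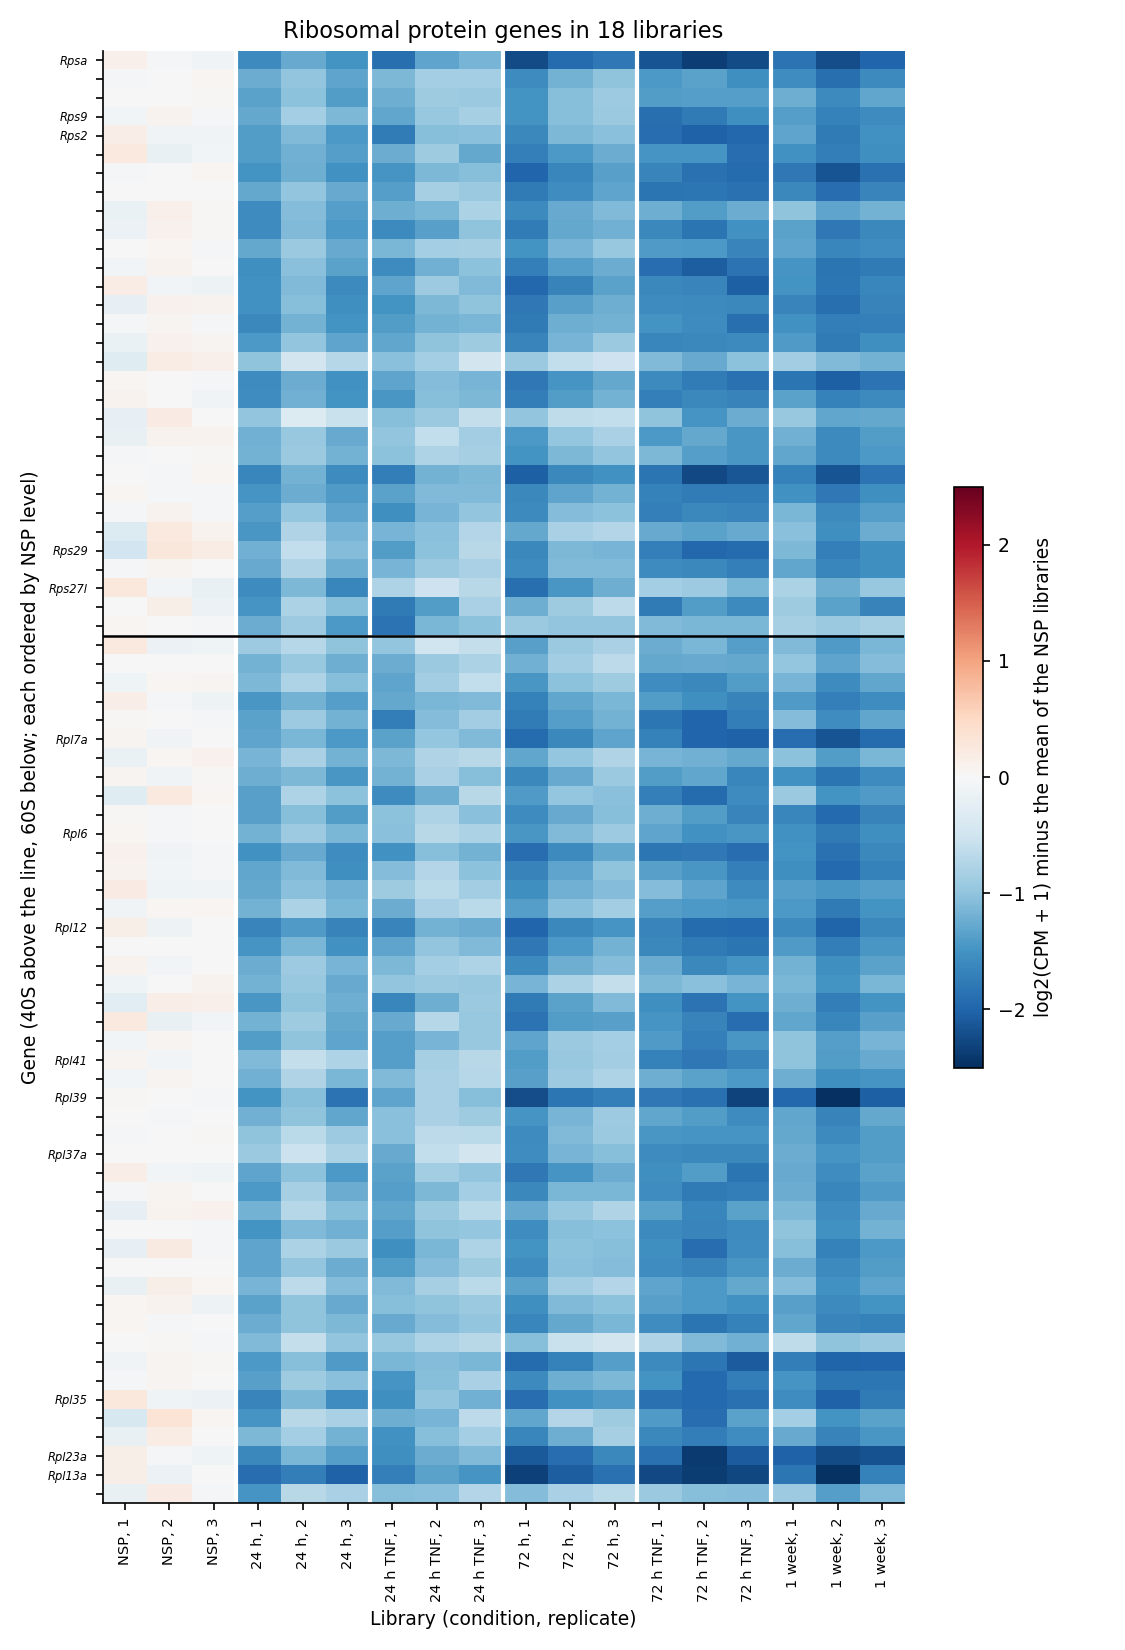
Difference of log2(CPM + 1) from the mean of the NSP libraries (color) for the 77 tested members (rows, labeled for the genes with the largest called changes) in each of the 18 libraries (columns). Columns outside NSPs are blue nearly throughout, with library medians from -0.89 (24 h TNF replicate 3) to -1.65 (1 week replicate 2), and libraries of 1 condition differ most at 72 h, from -1.59 to -1.07.

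All 77 tested members were called lower than in NSPs at each of the 3 times, so the same held for any grouping by place and role in the ribosome. The shares of all genes called lower were 25.5%, 27.2% and 29.1%. The 3 proteins of the stalk, Rplp0, Rplp1 and Rplp2, which recruit elongation factors, fell by 0.98 to 1.05 at 24 h and by 1.28 to 1.40 at 1 week. Rplp0, often used as a reference gene, went from 976, 1089 and 1106 CPM in NSPs to 485, 616 and 505 CPM at 24 h and 470, 353 and 431 CPM at 1 week. Rpl5 and Rpl11, which with the 5S ribosomal RNA hold back the p53 regulator Mdm2 when assembly fails, fell by 1.26 and 0.86 at 24 h and by 1.64 and 1.42 at 1 week. Among the 8 exit tunnel proteins the median was -1.32 at 24 h and -1.64 at 1 week, with Rpl35 lowest at 24 h (-1.45) and Rpl23a and Rpl39 lowest at 1 week. The 3 proteins at the mRNA entry and decoding site, Rps2, Rps3 and Rps23, had a median of -1.32 at 24 h and -1.53 at 1 week. Of 9 genes mutated in Diamond-Blackfan anemia, a failure of red cell production, the median was -1.26 at 24 h and -1.49 at 1 week. The 4 X-linked members (Rpl10, Rpl36a, Rpl39, Rps4x) had a median of -1.24 and -1.80.

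Rps6, Rps27a, Rpsa and Rpl13a are known for roles beyond the ribosome's structure. Rps6, the target of S6 kinases, went from 255, 242 and 242 CPM in NSPs to 87.9, 103 and 91.1 CPM at 24 h, 79.9, 98.8 and 108 CPM at 72 h and 85.6, 70.5 and 84.4 CPM at 1 week, with the smallest adjusted p of the members at 24 h (-1.39, SE 0.12, adjusted p = 5.27e-08). Rps27a, made as a fusion with ubiquitin, fell by 1.43 at 24 h (SE 0.16, adjusted p = 6.33e-07) and 1.66 at 1 week (SE 0.16, adjusted p = 4.74e-08). Rpsa fell by 1.44 at 24 h (SE 0.17, adjusted p = 1.53e-06) and by 2.01 at 1 week (SE 0.17, adjusted p = 1.33e-08). The median of these 3 with Rpl13a was -1.44 at 24 h, -1.68 at 72 h and -1.83 at 1 week.

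Among members with a paralogue, the widely expressed partners fell as the rest did, by 1.03 (Rpl10), 1.11 (Rpl3), 1.14 (Rps27), 1.18 (Rps4x) and 1.43 (Rpl39) at 24 h. Rps27l, a paralogue of Rps27 that p53 induces, fell by 1.45 at 24 h (SE 0.18, adjusted p = 3.34e-06) and by 1.52 at 72 h (SE 0.18, adjusted p = 1.14e-06). At 1 week it was lower than in NSPs by 0.99 (SE 0.18, adjusted p = 0.00011), less than its partner Rps27, which was lower by 1.40 (SE 0.16, adjusted p = 5.55e-07). Whether the pair differed was not tested. Rps4l, a paralogue that the annotation lists as a transcribed pseudogene and which is no member, was called higher at all 3 times. Its means were 0.253 CPM for NSPs, 1.72 CPM after 24 h, 0.688 CPM after 72 h and 0.791 CPM after 1 week (adjusted p = 0.000118, 0.0297 and 0.00963). These levels are close to the filter.

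**Figure D4:**
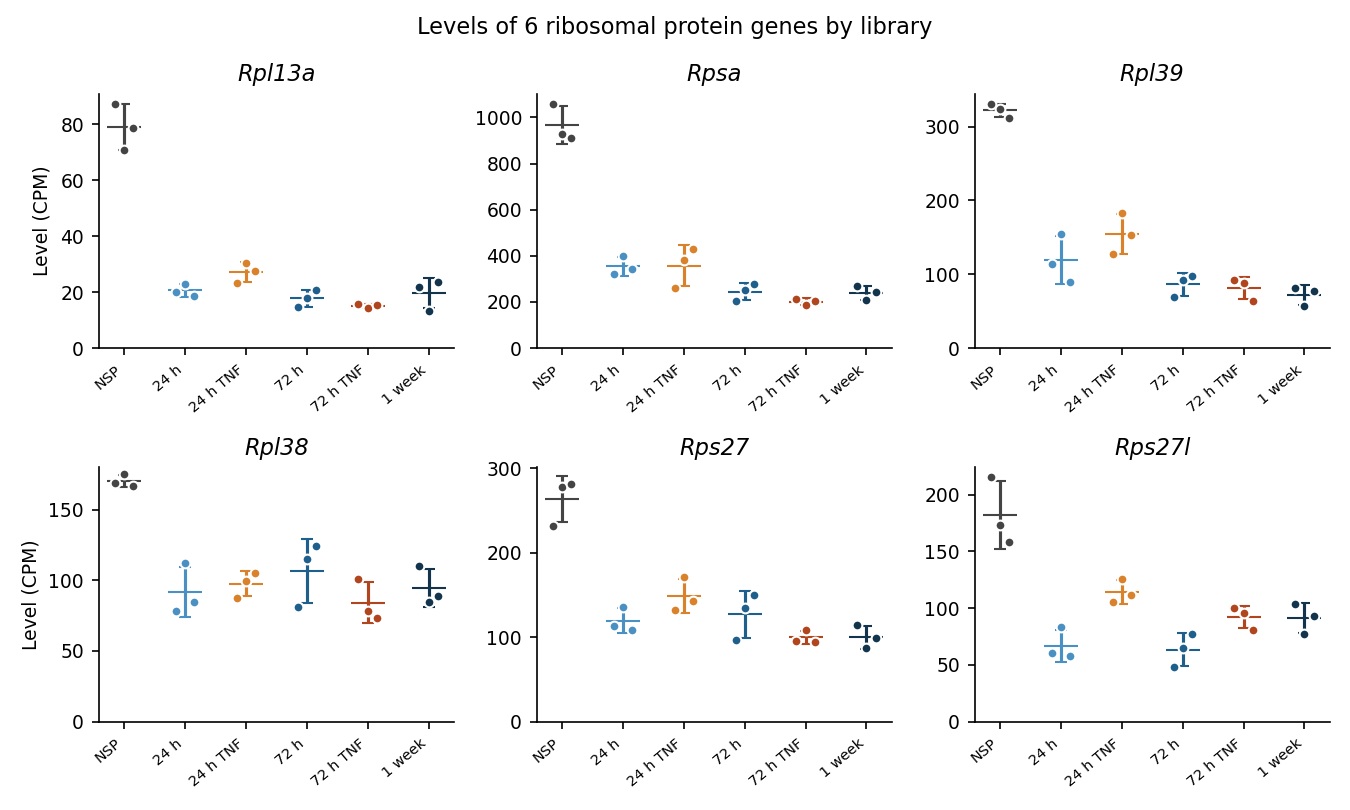
Levels in CPM (vertical axes from 0) of 6 members in each library (points), with the mean and SD of 3 replicates per condition. Rpl13a, Rpsa and Rpl39 are high in NSPs alone. Rps27l at 24 h with TNF (105 to 126 CPM) lies above 24 h without TNF (57.5 to 83.0 CPM), while its partner Rps27 overlaps between these groups.

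Genes that build, use or regulate the ribosome were examined beside the members. The counts below are to be read against the shares of all genes called lower, 25.5% at 24 h, 27.2% at 72 h and 29.1% at 1 week, and called higher, 27.2%, 28.1% and 29.6%. Of 22 translation factors and related genes whose mRNAs carry the same type of 5′ end or work with the ribosome, 21 were called lower at 24 h, 22 at 72 h and 22 at 1 week, with medians of -0.93, -0.99 and -1.21. The largest changes at 24 h were those of Npm1, a nucleolar chaperone (-1.84), and Eef1b2, an elongation factor subunit (-1.49), and Pabpc1, the poly(A)-binding protein, was not called (-0.36). Of 25 ribosome biogenesis genes, 25 were called lower at 24 h, 24 at 72 h and 23 at 1 week. Here the medians ran from -1.29 at 24 h to -1.08 and -0.81, with Nop56 of the snoRNA particles at -2.20 and Dkc1, a pseudouridine synthase, at -1.90 at 24 h. Of 16 genes of mTORC1 and translation control, 7 were called lower and 2 higher at 24 h. Eif4ebp1, a repressor of cap-dependent translation, was lower (-2.02, adjusted p = 2.22e-06) and its paralogue Eif4ebp2 higher (1.47, adjusted p = 0.00379). Of the 77 tested mitochondrial ribosomal protein genes, encoded in the nucleus for the ribosome of mitochondria, 67 were called lower and 1 higher at 24 h, with a median of -0.72, against -1.18 for the cytosolic set, and at 1 week 65 were lower and 2 higher, with a median of -0.66 against -1.48. The difference between the sets was not tested.

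The later steps without TNF gave few calls. From 24 h to 72 h, 3 of the 77 were called, all lower, with a median of -0.07 (all genes -0.01, 12.2% called higher and 12.6% lower). These were Rpsa, from 321, 401 and 344 CPM to 205, 253 and 278 CPM (-0.53, SE 0.17, adjusted p = 0.0241), Rpl23a, from 41.7, 57.5 and 49.2 CPM to 29.4, 33.6 and 41.3 CPM (-0.51, SE 0.16, adjusted p = 0.0287), and Rpl37a, a zinc-binding 60S protein, from 148, 194 and 163 CPM to 95.9, 126 and 134 CPM (-0.51, SE 0.17, adjusted p = 0.0319). The groups did not overlap, but the lowest 24 h and highest 72 h libraries were close. The result rested on single libraries. Without 24 h replicate 2 no member was called and the median was 0.07, without 72 h replicate 1 it was also 0.07 with 1 member called higher, without 72 h replicate 2 none was called, and without 72 h replicate 3 there were 7 called lower and a median of -0.20. Without 24 h replicate 3, 2 were called. Summed proliferation markers went from between 104 and 107 CPM at 24 h to between 12.1 and 16.8 CPM at 72 h, with all 8 genes called lower. Summed oligodendrocyte markers (167 to 175 CPM at 24 h, 381 to 517 CPM at 72 h), endothelial markers (4.76 to 5.29 CPM, 6.27 to 7.6 CPM) and mural and fibroblast markers (402 to 496 CPM, 198 to 294 CPM) did not overlap between the times either. Of 6 tested oligodendrocyte markers, however, 1 was called higher and 2 lower, with a median of -1.32. Of the endothelial and the mural and fibroblast markers, 0 were called. Of 8 neural stem cell markers, 1 was called higher and 4 lower, and 3 of 10 astrocyte and 3 of 7 tested neuron markers were called lower. The part of these lists was not tested.

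From 72 h to 1 week, 1 member was called, with a median of -0.23 over the members (all genes 0.00, 2.68% called higher and 3.96% lower). This was Rpl6, a 60S protein, from 160, 204 and 236 CPM to 154, 129 and 151 CPM (-0.47, SE 0.14, adjusted p = 0.0467), and the highest 1 week value was just below the lowest 72 h value. Rpl10, which joins late in the assembly of the 60S subunit, had the lowest log2 fold change (-0.49, SE 0.16, adjusted p = 0.0719), and Rps27l the highest, from 48.2, 65.0 and 77.2 CPM to 104, 77.4 and 93.3 CPM (0.53, SE 0.18, adjusted p = 0.0881), and neither passed the test. Leaving out 72 h replicate 1, the lowest of its group, gave 11 members called lower, and leaving out any other library of these groups gave 0. Of the members, 70 were below 0 (50% of all genes), and at an unadjusted p under 0.05 edgeR gave 15 lower and 1 higher, 16 of the 77, beside 3872 of all 20067 genes in either direction. The summed astrocyte markers were between 3586 and 3724 CPM at 1 week against 6303 to 8599 CPM at 72 h, with 6 of 10 called lower, and the mitochondrial genome took 1.6% to 2.09% of counts against 3.19% to 3.45%. Summed oligodendrocyte and endothelial markers were also lower at 1 week than at 72 h in every library, and summed neuron and mural and fibroblast markers higher. By gene, 0 of 7 tested neuron markers were called, with a median of -0.50. Of 6 tested oligodendrocyte markers 1 was called lower, of 4 endothelial markers 0 were called, and of 3 mural and fibroblast markers 1 was called lower. The part of these in the result was not tested.

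The next question was whether TNF changed the members during differentiation. After 24 h, 1 of the 77 was called, and it was higher with TNF (all genes 2.18% higher and 1.32% lower). This was Rps27l, at 60.2, 83.0 and 57.5 CPM without TNF and 105, 126 and 112 CPM with it (log2 fold change 0.77, SE 0.18, adjusted p = 0.0186). Every TNF library was above every untreated one. Its partner Rps27 was at 113, 136 and 109 CPM without TNF and 132, 171 and 143 CPM with it (0.32, SE 0.16, adjusted p = 0.394), groups that overlapped. Whether the pair differed in response was not tested. The median of the members was 0.15, and Rpl13a came second with 20.2, 23.0 and 18.6 CPM against 23.3, 30.5 and 27.6 CPM, which did not overlap but did not pass the test (0.39, SE 0.18, adjusted p = 0.344). The call of Rps27l was lost without 24 h replicate 1 (adjusted p = 0.112), 24 h replicate 3 (0.109) or 24 h TNF replicate 2 (0.068), and was kept without the 3 libraries that stood apart, where the log2 fold change was 0.81. Summed microglia and blood markers were between 40.9 and 46.5 CPM with TNF and between 32.1 and 40.5 CPM without, with Ptprc and Itgam near 0 in all libraries and 0 of 3 tested genes called. In other lists, 3 of 10 astrocyte markers (median -0.37) and 1 of 6 tested oligodendrocyte markers were called lower with TNF. Of 3 tested mural and fibroblast markers, 1 was called higher. The part of these lists was not tested.

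After 72 h, 4 members were called, all lower with TNF, with a median of -0.30 (all genes -0.01, 4.35% called higher and 5.21% lower). Rps2, by the entry of the mRNA channel, was at 206, 286 and 302 CPM without TNF and 168, 155 and 161 CPM with it (-0.71, SE 0.18, adjusted p = 0.0174). Rpl41, the shortest of the ribosomal proteins, was at 123, 168 and 178 CPM against 100, 93.6 and 103 CPM (-0.66, SE 0.18, adjusted p = 0.0218). Rps9, a 40S protein near the mRNA channel, was at 223, 303 and 333 CPM against 171, 186 and 219 CPM (-0.58, SE 0.16, adjusted p = 0.0302). In each of these 3 genes the groups did not overlap and replicate 1 was the lowest untreated library, but for Rps9 the highest TNF library was close to it. Rps27l was above 0, unlike most members, with 48.2, 65.0 and 77.2 CPM against 100, 95.8 and 81.1 CPM, no overlap and no call (0.54, SE 0.18, adjusted p = 0.0647). Without 72 h replicate 1 there were 30 members called lower, without 72 h replicate 2 or 72 h TNF replicate 2 there were 0, without 72 h TNF replicate 1 there were 2, and without 72 h replicate 3 the only call was 1 higher. Without the 3 libraries that stood apart, 10 were called lower. With library totals in place of TMM, 1 member was called higher and 2 lower, and 59.0% of all calls were higher, against 45.5% with TMM. The mitochondrial genome took 8.01%, 3.66% and 2.43% of the counts in the 72 h TNF libraries and 3.19% to 3.45% without TNF. Summed markers that did not overlap between these groups were those of astrocytes (3785 to 5199 CPM with TNF, 6303 to 8599 CPM without, 3 of 10 genes called lower), of oligodendrocytes (217 to 328 CPM against 381 to 517 CPM, 1 of 6 tested called lower and 1 higher) and of endothelial cells (3.65 to 3.81 CPM against 6.27 to 7.6 CPM, 1 of 4 tested called lower). The 4 tested endothelial genes had a median of 1.00 and a lowest value of -2.27, so the lower sum does not stand for the whole list. The part of these lists in the calls was not tested.

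**Figure D5:**
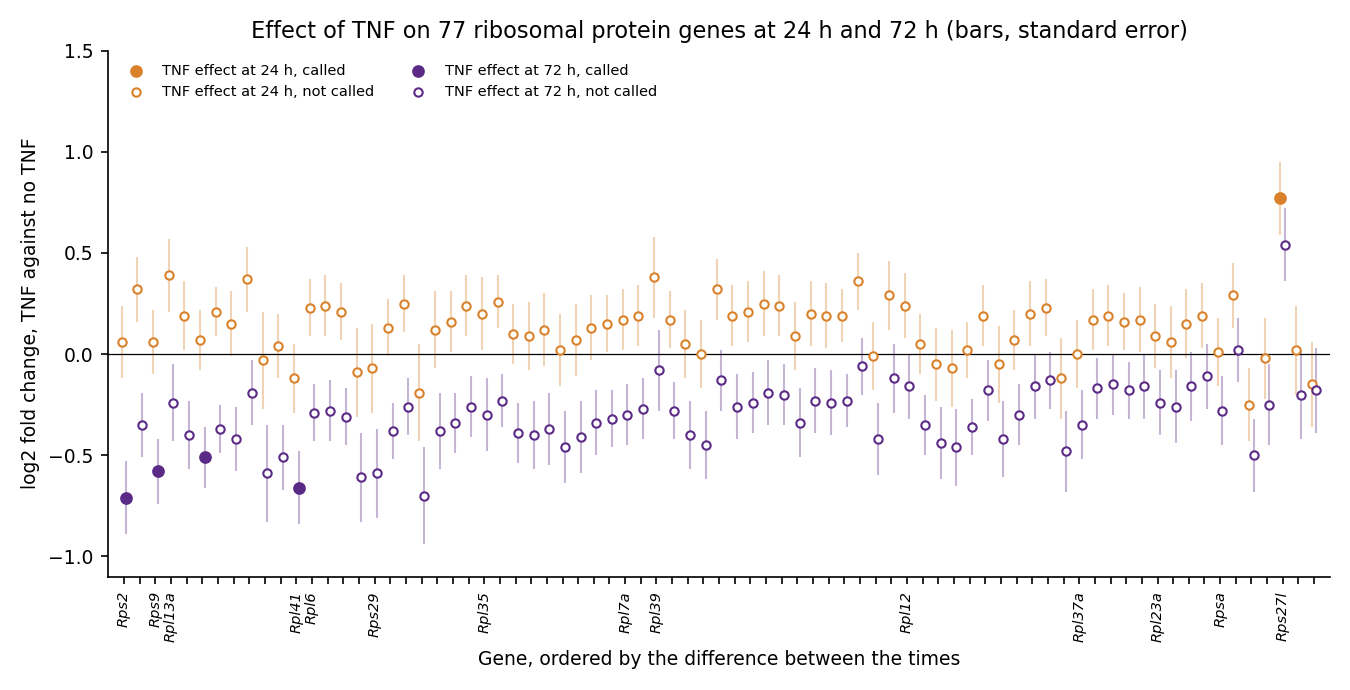
Log2 fold change of each tested member with TNF against no TNF at 24 h (orange) and at 72 h (purple), with the standard error, filled where called, ordered by the difference between the times and labeled for the genes with the largest called changes. The 24 h values have a median of 0.15 and the 72 h values a median of -0.30, and Rps27l is high at both times.

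The direct test of the difference between the TNF effects at the 2 times (the interaction of TNF and time) called 0 members by edgeR and 0 by DESeq2, while 0.458% of all genes were called by edgeR. At an unadjusted p under 0.05, edgeR gave 29 members, all with a lower TNF effect at 72 h, where 5.6% of all genes were lower at this level, and DESeq2 also gave 29. All 77 estimates were below 0, with a median of -0.45, against 51.2% of all genes. The members share the same 12 libraries, so a shift of 1 library moves them together and 77 estimates on 1 side are not 77 observations. The smallest adjusted p was that of Rps6 (-0.58, SE 0.17, adjusted p = 0.187), and the largest difference that of Rps2 (-0.77, SE 0.26, adjusted p = 0.256). Without the 3 libraries that stood apart, 1 member was called, with a median of -0.57.

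Between 24 h and 72 h under TNF, 48 of the 77 members were called lower, with a median of -0.54 (1.45-fold), while 5.38% of all genes were called higher and 7.93% lower and their median was 0.00. Rpl39 was at 128, 183 and 153 CPM at 24 h and 92.4, 87.7 and 64.1 CPM at 72 h (-0.93, SE 0.20, adjusted p = 0.00483). Rpl37a went from 118, 183 and 205 CPM to 94.0, 92.2 and 92.2 CPM (-0.86, SE 0.17, adjusted p = 0.00221). Rps29, a zinc-binding 40S protein, went from 76.9, 101 and 127 CPM to 62.3, 52.2 and 53.1 CPM (-0.86, SE 0.22, adjusted p = 0.0148). In all 3 genes replicate 1 was the lowest at 24 h and the groups did not overlap. The call of Rps29 was lost under 4 alternatives, without replicate 2 or 3 of either group, where its log2 fold change was -0.84 or -0.67 (24 h) and -0.82 or -0.83 (72 h). Rpl13a (-0.84, adjusted p = 0.00531), Rpsa (-0.82, adjusted p = 0.00322) and Rps6 (-0.55, adjusted p = 0.00539) were called as well, as were 7 of the 8 exit tunnel genes and all 4 X-linked members. Of the stalk proteins Rplp0 was called (-0.61, adjusted p = 0.0278), and Rplp1 and Rplp2 were not (-0.62 and -0.55). Rps10 was the 1 member above 0 (0.20, adjusted p = 0.602). The count depended on single libraries. It was 59 without 24 h TNF replicate 1, 15 without 24 h TNF replicate 2, 18 without 24 h TNF replicate 3, 26 without 72 h TNF replicate 2 and 17 without 72 h TNF replicate 3, all of them lower, and 63 without the 3 libraries that stood apart. Fitted on these 6 libraries alone, 14 were called lower. Summed proliferation markers were between 43.4 and 106 CPM at 24 h with TNF and between 12.3 and 29.5 CPM at 72 h with TNF (6 of 8 called lower, median -1.89). The same step without TNF, with its 3 member calls, had a median of -2.25 for these markers and all 8 called lower. With TNF, summed oligodendrocyte markers (128 to 188 CPM at 24 h, 217 to 328 CPM at 72 h) and endothelial markers (5.16 to 5.89 CPM, 3.65 to 3.81 CPM) did not overlap between the times either. Of 6 tested oligodendrocyte markers, however, 1 was called higher and 2 lower, with a median of -0.46, and 0 of 4 tested endothelial markers were called. In the other lists, 4 of 7 tested neuron, 3 of 10 astrocyte and 2 of 8 neural stem cell markers were called lower. The part of these lists in the result was not tested. The same step without TNF gave 3 calls and a median of -0.07, and the difference between the 2 steps is the interaction tested above.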

How the data were processed

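RNA-seq libraries of 18 mouse cell cultures were analyzed. The authors trimmed the reads with Trim Galore, checked them with FastQC, aligned them with STAR (mm10, per the labels) and used SAMtools and then featureCounts, and deposited the raw counts per gene without normalization. Their versions, strand setting and treatment of reads with several matching genes are not given in the sources used here. All 18 columns were used. The column of the third 72 h library carries the number 4 and was matched by its run suffix. Gene positions and types came from GENCODE M21 (54809 of 54838 identifiers), start sequences from RefSeq.

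Counts were scaled with TMM and tested with edgeR 4.0.16 (limma 3.58.1, R 4.3.3; quasi-likelihood, filterByExpr, 1 mean per condition over all 18 libraries), with Benjamini-Hochberg adjustment over 20067 genes and a threshold of 0.05. SE is the size of the log2 fold change over the square root of F. The steps were tested on simulated data. Tables and figures used Python 3.11.15 (numpy 2.4.6, pandas 2.3.3, matplotlib 3.10.9). Depth covers counting error only, since reads carry no molecular identifiers.

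The members and gene lists were chosen with earlier results of these data known. Named genes are, per comparison, the 3 largest called rises and falls whose groups do not overlap (minimum mean 1 CPM), all members of the stalk, 5S, further-role and paralogue lists, the untested members, and the 3 highest per kilobase. For other lists the 2 largest called changes are named. Other genes were named after their values were seen, and some single genes are not reported here. Replicates share numbers in the labels. Deviations of same-numbered libraries from their group means were correlated above 0.1 in all 3 pairs only for 72 h against 24 h with TNF (0.291, 0.255 and 0.266), so numbers were taken to pair samples there.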

Additional observations from a re-analysis of the deposited data

How the results depend on the processing

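Among the alternative values for the counts, medians and shares, 312 stayed within 1.5 times the count or 1 SD of the value and 41 did not. The 3 comparisons with NSPs gave 76 or 77 members called lower under every alternative tried. Library totals moved the median of all genes to 0.14 at 24 h, 0.12 at 72 h and 0.17 at 1 week against NSPs, and those of the members to -1.1, -1.19 and -1.38. Leaving out single libraries gave 0 to 7 calls for 72 h against 24 h, 0 to 11 for 1 week against 72 h, 0 to 1 for TNF at 24 h, 0 to 30 for TNF at 72 h and 15 to 59 for 72 h against 24 h with TNF. For 1 week against 72 h there were 0 calls with a minimum log2 fold change of 0.5, 2 with library totals (1 higher, 1 lower), 2 with no filter on low counts (1 higher, 1 lower), 7 with at least 10 counts in every library (1 higher, 6 lower) and 3 with DESeq2, all lower. For TNF at 72 h there were 12 with no filter (1 higher, 11 lower) and 7 with DESeq2, and 10 without the 3 libraries that stood apart, an alternative chosen after the data were seen. The interaction gave 1 call with no filter and 1 without these 3 libraries. For 72 h against 24 h with TNF there were 14 calls in a fit of only the groups compared, which has fewer samples to estimate the spread. In the other comparisons this fit gave the same counts as the main one. The cause was not tested for any of these differences. As a share of protein-coding counts the members took 3.05% in NSPs, 1.5% at 24 h, 1.66% at 24 h with TNF, 1.38% at 72 h, 1.21% at 72 h with TNF and 1.21% at 1 week.

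With the replicate number as a block, 42 members were called for 72 h against 24 h with TNF, where the numbers were taken to pair the samples, and 0 for 1 week against 72 h, where the correlations of same-numbered libraries were -0.416, -0.175 and 0.303. The labels do not state a pairing, and replicate 1 stood apart in both TNF groups. With the third 72 h library unpaired in the block, TNF at 72 h gave 1 call, which was higher, and 1 week against 72 h also gave 1 call, higher in place of the lower one. Otherwise the block changed no count by more than 1.5 times.

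With 3 libraries per condition, calls between the differentiated conditions rested on small differences, and the named calls of Rpsa, Rpl23a and Rpl37a (72 h against 24 h), Rpl6, Rps27l, Rps2, Rpl41, Rps9 and Rps29 were each lost under 3 to 9 alternatives, with no change of sign. Rpl3l, Rpl10l and Rpl39l had too few counts to test.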

Other observations

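Ribosomal protein genes that the symbol rule leaves out were lower than in NSPs as well. All 7 that were looked at, among them Rps3a1, Fau, Rack1, Rpl22l1, Rpl36al and Rps27rt, were called lower by edgeR at 24 h, 72 h and 1 week. Of all genes, 25.5%, 27.2% and 29.1% were called lower at these times. Rps3a1, a 40S protein, had means of 656 CPM in NSPs and 261 CPM at 24 h (log2 fold change -1.33, adjusted p = 9.93e-07), and Rack1, a scaffold on the 40S head, 784 and 317 CPM (-1.31, adjusted p = 3.41e-06). Fau, which encodes Rps30 as a fusion, fell by 0.83 (adjusted p = 0.00132) at 24 h on the log2 scale. Rpl22l1, a paralogue of Rpl22, fell by 0.98 (adjusted p = 0.00024), and Rpl22 itself fell by 1.13 (adjusted p = 2.93e-06).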
